A study of Mus musculus with 16 samples.

Results

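Ribosome biogenesis was followed in 49 genes of the nucleolus in the livers and liver tumours of transgenic mice. The genes were chosen by their function, but with earlier results of these data known, so they are not tested as a list. Of the 49 genes, 48 had a row of a single gene symbol on the mouse array, out of 22180 named genes in all. The remaining one, Tsr1, shares its row with a second symbol and was not analysed here. All 48 genes passed the filter on low values, among 13555 tested genes.

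The samples came from 8 mice of the C57BL/6J background, aged 18 months, with 1 tumour and 1 piece of non-tumour liver from each mouse. The 4 groups of 4 arrays were tumours of MYC/REG3A mice, their non-tumour livers, tumours of MYC mice and the non-tumour livers of these. The labels give the genotypes as MYC+/+, REG3A+/+ and MYC+/+, REG3A-/-. Every mouse therefore carried the c-MYC transgene, which woodchuck hepatitis virus sequences drive in the liver, and no liver without it was part of the comparison. REG3A is a secreted C-type lectin of pancreas, gut and diseased liver. The promoter of its transgene is not given in the sources used here, nor is the number of founder lines. Values are log2 expression levels that the authors made with RMA, which makes the arrays' distributions equal, so a difference is always one against the bulk of measured genes. Levels of different genes cannot be compared on this scale. The hepatocyte markers Alb, Apoa1, Apob, Ttr, Serpina1a, Tat, Cps1 and Hnf4a were above the lower quartile of the arrays in every group. Of the 8, 1 fell in MYC/REG3A tumours and 3 in MYC tumours, where 4.88% and 15.8% of all tested genes fell. The estimate was below 0 for 8 markers in MYC/REG3A tumours and 7 in MYC tumours, with medians of -0.13 and -0.16.

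Ribosomes are assembled in the nucleolus. RNA polymerase I transcribes one long precursor of the ribosomal RNAs, small nucleolar ribonucleoproteins (snoRNPs) guide its methylation and pseudouridylation, and large protein complexes fold and cut it while ribosomal proteins join. The small and the large subunit then mature along separate routes and are exported to the cytoplasm. Many genes of this pathway are known targets of c-MYC, which binds the DNA sequence called the E-box, and enlarged nucleoli are a long-known feature of liver tumour cells.

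Ribosome biogenesis genes were higher in the tumours of both genotypes, and all 48 estimates were above 0 in each. In MYC/REG3A mice 32 of 48 rose, against a background of 7.58% of all tested genes called higher, and 0 fell (background called lower 4.88%). In MYC mice 45 of 48 rose, against a background of 17.4%, and 0 fell (background 15.8%). The median change was 0.62 in MYC/REG3A mice and 0.97 in MYC mice on the log2 scale, beside -0.02 and -0.03 over all tested genes. Changes ranged from 0.15 to 1.48 in MYC/REG3A mice and from 0.29 to 1.96 in MYC mice. The largest was that of Nop56, a core protein of box C/D snoRNPs, which was 2.78-fold higher in MYC/REG3A tumours and 3.89-fold higher in MYC tumours. Calls rest on limma with the mouse as a block and Benjamini-Hochberg adjustment over all tested genes at a threshold of 0.05, with 4 mice per genotype throughout. The standard errors (SE) pool the residual spread of both genotypes.

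Every tumour lay above every non-tumour liver for 32 of the 48 genes in MYC/REG3A mice, where 11.2% of all tested genes did so, and for 47 in MYC mice, where 16% did so. The tumour exceeded the liver of the same mouse in all 4 mice for 45 genes in MYC/REG3A mice (background 19.5%) and for 47 in MYC mice (background 23.4%). The genes called in MYC/REG3A mice were all called in MYC mice too: 32 passed in both, 13 in MYC mice alone, 0 in MYC/REG3A mice alone and 3 in neither. The count in MYC/REG3A mice depended on 2 animals. Without MYC/REG3A mouse 1 it was 9, namely Gar1, Nhp2, Nop56, Nop58, Npm1, Polr1b, Ppan, Wdr43 and Wdr75. Without MYC/REG3A mouse 3 it was 13, namely those 9 and Mybbp1a, Noc3l, Nolc1 and Rrp12. All 48 changes stayed above 0 in both cases. Their median was 0.50 without mouse 1 and 0.63 without mouse 3, beside 0.62 with all mice. The background of genes called in either direction was 12.5% in MYC/REG3A mice and 33.2% in MYC mice with all mice. In MYC/REG3A mice it was 2.07% without mouse 1 and 2.01% without mouse 3, so calls were lost over all tested genes.

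The DNA around the gene start is shown for the 6 genes with the largest mean change. Whether it has a part in the change was not tested. RefSeq promoter windows of build GRCm38.p6 (250 bases before to 50 after the start) were found for 43 of the 48 genes, and the stretch from 130 bases before the start to base 30 of the transcript is printed. Capitals mark CACGTG, the canonical E-box, and CACGCG or its reverse complement CGCGTG, a variant. The positions are Nop56 chr2:130274282-130274441 (plus strand), Nhp2 chr11:51619643-51619802 (plus strand), Nop58 chr1:59684876-59685035 (plus strand), Wdr12 chr1:60098471-60098630 (minus strand), Ncl chr1:86359426-86359585 (minus strand) and Ppan chr9:20888045-20888204 (plus strand). Wdr12 has 3 annotated starts, and the first listed is shown.
Nop56: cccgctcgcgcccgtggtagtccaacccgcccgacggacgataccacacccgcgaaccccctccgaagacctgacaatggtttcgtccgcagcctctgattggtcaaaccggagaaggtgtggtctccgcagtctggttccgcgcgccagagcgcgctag
Nhp2: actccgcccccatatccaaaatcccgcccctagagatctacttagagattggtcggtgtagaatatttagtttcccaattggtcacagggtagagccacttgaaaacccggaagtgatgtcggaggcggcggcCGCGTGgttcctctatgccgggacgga
Nop58: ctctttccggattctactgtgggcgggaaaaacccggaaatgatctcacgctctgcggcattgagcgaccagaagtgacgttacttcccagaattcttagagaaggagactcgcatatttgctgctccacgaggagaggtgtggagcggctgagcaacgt
Wdr12: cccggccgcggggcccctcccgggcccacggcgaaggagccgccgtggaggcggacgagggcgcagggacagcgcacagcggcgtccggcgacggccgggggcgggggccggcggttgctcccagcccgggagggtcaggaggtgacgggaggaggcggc
Ncl: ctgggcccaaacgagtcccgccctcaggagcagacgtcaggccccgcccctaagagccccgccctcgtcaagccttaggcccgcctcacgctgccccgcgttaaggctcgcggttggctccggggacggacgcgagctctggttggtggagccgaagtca
Ppan: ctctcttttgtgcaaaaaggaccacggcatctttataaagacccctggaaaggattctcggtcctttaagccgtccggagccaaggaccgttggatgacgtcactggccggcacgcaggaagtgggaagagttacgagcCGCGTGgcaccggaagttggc

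None of these 6 printed stretches holds CACGTG, while Nhp2 and Ppan hold CGCGTG just after the start. The genes below, 5 in number, hold CACGTG inside the same stretch and are shown to give its place. The positions are Nop2 chr6:125131753-125131912 (plus strand), Wdr43 chr17:71616085-71616244 (plus strand), Imp4 chr1:34439699-34439858 (plus strand), Nle1 chr11:82908366-82908525 (minus strand) and Pes1 chr11:3963845-3964004 (plus strand). The motif begins at base -60 in Nop2 and -121 in Imp4, counted back from the start, and at base 18 in Wdr43, 24 in Nle1 and 3 in Pes1, counted from 1 at the start.
Nop2: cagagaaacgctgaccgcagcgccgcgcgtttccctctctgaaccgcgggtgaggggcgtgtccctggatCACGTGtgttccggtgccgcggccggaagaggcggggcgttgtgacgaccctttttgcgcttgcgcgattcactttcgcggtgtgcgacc
Wdr43: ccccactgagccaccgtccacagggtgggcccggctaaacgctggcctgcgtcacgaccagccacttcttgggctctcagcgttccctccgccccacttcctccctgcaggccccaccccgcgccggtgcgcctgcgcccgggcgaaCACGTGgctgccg
Imp4: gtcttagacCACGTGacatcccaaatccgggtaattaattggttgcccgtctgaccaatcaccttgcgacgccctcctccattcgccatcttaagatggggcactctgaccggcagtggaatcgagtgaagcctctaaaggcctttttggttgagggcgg
Nle1: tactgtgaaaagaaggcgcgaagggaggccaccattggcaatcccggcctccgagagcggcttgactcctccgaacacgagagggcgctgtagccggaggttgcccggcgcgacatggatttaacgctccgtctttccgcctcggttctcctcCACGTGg
Pes1: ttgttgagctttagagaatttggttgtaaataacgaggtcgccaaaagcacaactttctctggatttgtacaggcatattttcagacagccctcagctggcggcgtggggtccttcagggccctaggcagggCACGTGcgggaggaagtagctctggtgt

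Over the full windows of 300 bases, searched on both strands, 9 of 47 promoter windows of these genes held CACGTG (19.1%), against 20.6% of windows of the other ribosome assembly genes, 9.62% of 13446 windows of tested genes and 7.15% of all 32851 windows. Outside the stretches shown it lay in Grwd1, Mybbp1a, Pno1 and Utp20. CACGCG or CGCGTG was in 15 of the 47 windows (31.9%), against 28% for the other ribosome assembly genes, 15.7% for tested genes and 9.27% for all. Median GC content was 58% in the windows of these genes, 60% in those of tested genes and 52.7% in all. The mean change of both genotypes had a median of 0.69 over the 9 genes with CACGTG and 0.84 over the 34 without it. These are matches of letters in a short window, and sites elsewhere in the genes were not searched.

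**Figure D1:**
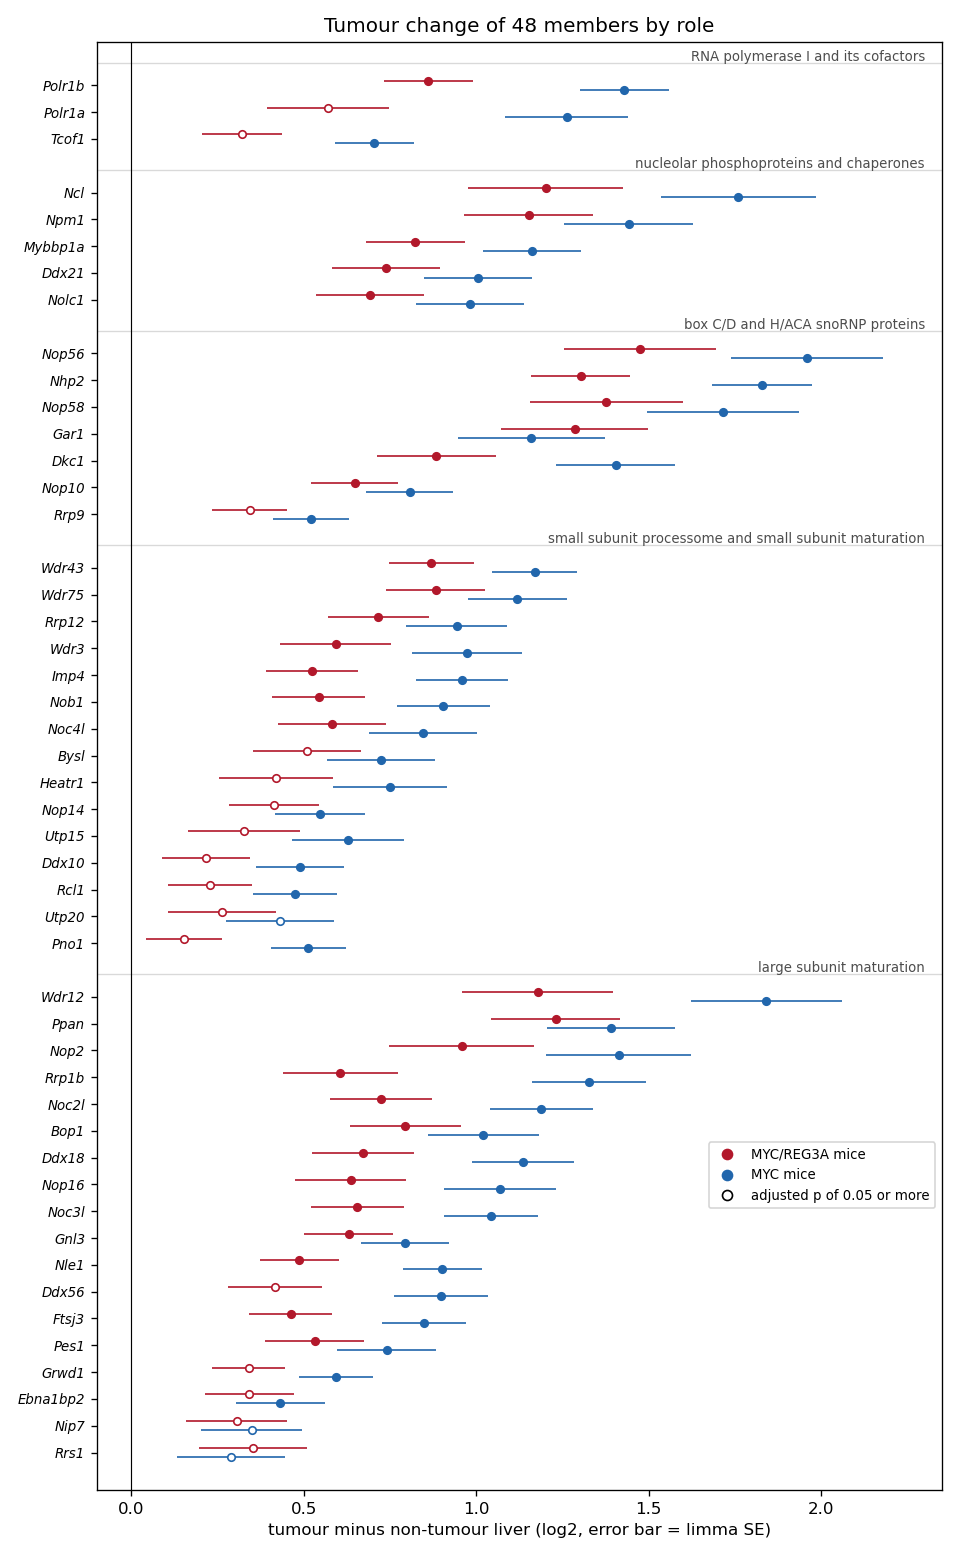
Tumour minus non-tumour liver (log2, x axis) for the 48 genes, grouped by role and ordered within it by the mean of both genotypes, MYC/REG3A mice in red above MYC mice in blue, with limma's SE as bars; open circles did not pass the threshold. All 96 points lie right of 0, and Nop56 lies furthest right in both genotypes.

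The machinery of rRNA transcription was represented by 3 genes. 1 of the 3 rose in MYC/REG3A tumours (median 0.57, background 7.58% of all tested genes) and 3 of 3 in MYC tumours (median 1.26, background 17.4%). Polr1b encodes the second-largest subunit of RNA polymerase I. It had log2 levels of 8.46, 7.9, 8.56 and 7.73 in the tumours of MYC/REG3A mice 1 to 4, against 7.37, 7.24, 7.42 and 7.17 in their non-tumour liver. Its levels were 8.58, 8.77, 8.44 and 8.85 in the tumours of MYC mice 1 to 4, against 7.31, 7.48, 6.99 and 7.14 in their non-tumour liver. Tumours and livers of a genotype did not overlap, and among MYC/REG3A tumours those of mice 1 and 3 were the higher ones. Its change was 0.86 (SE 0.129, adjusted p = 0.00707) in MYC/REG3A mice and 1.43 (SE 0.129, adjusted p = 0.000403) in MYC mice. Polr1a, the largest subunit and the catalytic core, averaged 8.35 ± 0.40 in MYC/REG3A tumours and 7.78 ± 0.22 in their livers (SD, n = 4 each), a difference of 0.57 that did not pass (SE 0.178, adjusted p = 0.0624). In MYC mice it averaged 8.91 ± 0.36 in tumours and 7.65 ± 0.28 in livers and rose by 1.26 (SE 0.178, adjusted p = 0.0013).

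Tcof1 encodes treacle, a nucleolar scaffold that links the polymerase to rRNA processing. It had levels of 6.97, 6.38, 6.67 and 6.64 in the tumours of MYC/REG3A mice 1 to 4, against 6.32, 6.21, 6.46 and 6.38 in their non-tumour liver. The levels were 7.15, 7.14, 6.95 and 7.16 in the tumours of MYC mice 1 to 4, against 6.64, 6.22, 6.14 and 6.59 in their non-tumour liver. The MYC/REG3A tumour of mouse 2 lay below the liver of mouse 3 and level with that of mouse 4, whereas all MYC tumours lay above all MYC livers. The difference was 0.32 in MYC/REG3A mice without passing (SE 0.116, adjusted p = 0.0948), and Tcof1 rose by 0.70 in MYC mice (SE 0.116, adjusted p = 0.00232).

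All 5 abundant nucleolar phosphoproteins and chaperones rose in both genotypes (background 7.58% and 17.4%), with a median of 0.82 in MYC/REG3A mice and 1.16 in MYC mice. Ncl encodes nucleolin, which binds the nascent rRNA precursor. It showed levels of 10.46, 9.32, 10.08 and 9.37 in the tumours of MYC/REG3A mice 1 to 4, against 8.5, 8.6, 8.77 and 8.57 in their non-tumour liver. It stood at 10.59, 10.43, 9.89 and 10.58 in the tumours of MYC mice 1 to 4, against 8.56, 8.74, 8.79 and 8.35 in their non-tumour liver. The tumours of MYC/REG3A mice 1 and 3 reached the range of the MYC tumours and those of mice 2 and 4 lay between it and the livers. Ncl rose by 1.2 (SE 0.224, adjusted p = 0.013) in MYC/REG3A mice and 1.76 (SE 0.224, adjusted p = 0.000956) in MYC mice. It did not pass in MYC/REG3A mice without mouse 1 or without mouse 3. Npm1, the nucleolar chaperone nucleophosmin, rose by 1.15 in MYC/REG3A mice and 1.44 in MYC mice and kept its call without either mouse. Processed copies of Npm1 occur in the genome and could share its probes.

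Nolc1 encodes a chaperone of snoRNPs that shuttles between nucleolus and Cajal bodies. The row had levels of 8.38, 7.86, 7.97 and 7.85 in the tumours of MYC/REG3A mice 1 to 4, against 7.14, 7.3, 7.73 and 7.12 in their non-tumour liver. Log2 levels were 8.63, 8.44, 8.13 and 8.01 in the tumours of MYC mice 1 to 4, against 7.39, 7.72, 7.02 and 7.15 in their non-tumour liver. No tumour of a genotype reached down to its livers, although the MYC/REG3A liver of mouse 3 came close to the tumours. Nolc1 rose by 0.69 (SE 0.156, adjusted p = 0.0232) in MYC/REG3A mice and 0.98 (SE 0.156, adjusted p = 0.00205) in MYC mice. The call in MYC/REG3A mice was lost without mouse 1 and without mouse 4. Mybbp1a, a nucleolar protein bound to RNA polymerase I, rose by 0.82 in MYC/REG3A mice and 1.16 in MYC mice, and Ddx21, an RNA helicase that acts on rRNA transcription and snoRNAs, by 0.74 in MYC/REG3A mice and 1.0 in MYC mice.

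The snoRNP proteins had the highest median change of the 5 roles. Of 7, 6 rose in MYC/REG3A tumours (median 1.29, background 7.58%) and 7 in MYC tumours (median 1.4, background 17.4%). Nop56 and Nop58 form, together with the methyltransferase fibrillarin, the core of box C/D particles, which guide rRNA methylation. Nop56 had levels of 10.03, 8.82, 9.81 and 8.71 in the tumours of MYC/REG3A mice 1 to 4, against 7.67, 7.85, 8.16 and 7.78 in their non-tumour liver. Its levels were 9.97, 10.3, 9.46 and 9.99 in the tumours of MYC mice 1 to 4, against 8.13, 8.04, 7.88 and 7.84 in their non-tumour liver. The 8 tumours lay above the 8 livers, with the 2 lowest tumours in MYC/REG3A mice 2 and 4. Nop56 rose by 1.48 (SE 0.22, adjusted p = 0.00707) in MYC/REG3A mice and 1.96 (SE 0.22, adjusted p = 0.000673) in MYC mice. Nop58 had levels of 8.42, 7.18, 8.2 and 7.88 in the tumours of MYC/REG3A mice 1 to 4, against 6.24, 6.71, 6.72 and 6.49 in their non-tumour liver. The levels were 8.47, 8.61, 7.89 and 8.81 in the tumours of MYC mice 1 to 4, against 6.75, 7.0, 6.4 and 6.77 in their non-tumour liver. Again no tumour overlapped a liver, and the tumour of MYC/REG3A mouse 2 was the lowest. Nop58 rose by 1.38 (SE 0.221, adjusted p = 0.00798) in MYC/REG3A mice and 1.71 (SE 0.221, adjusted p = 0.000985) in MYC mice.

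The H/ACA particles, which guide pseudouridylation, have 4 core proteins, and all 4 rose in both genotypes. Dkc1, the pseudouridine synthase dyskerin, rose by 0.88 in MYC/REG3A mice and 1.4 in MYC mice. Nhp2, an RNA-binding core protein, averaged 8.22 ± 0.39 in MYC/REG3A tumours and 6.92 ± 0.07 in their livers, and 8.66 ± 0.11 in MYC tumours and 6.83 ± 0.15 in theirs (SD, n = 4 each). Its rise of 1.3 (SE 0.144, adjusted p = 0.00274) in MYC/REG3A mice and 1.83 (SE 0.144, adjusted p = 0.000265) in MYC mice had the smallest p of the 48 genes in either genotype. Gar1 rose by 1.29 in MYC/REG3A mice and 1.16 in MYC mice and Nop10 by 0.65 in MYC/REG3A mice and 0.81 in MYC mice. Rrp9 binds the U3 snoRNA, a box C/D particle needed for the first cuts of the precursor. The gene had levels of 6.85, 7.0, 7.03 and 6.6 in the tumours of MYC/REG3A mice 1 to 4, against 6.53, 6.43, 6.55 and 6.59 in their non-tumour liver. It stood at 7.15, 7.12, 7.0 and 7.19 in the tumours of MYC mice 1 to 4, against 6.68, 6.52, 6.54 and 6.64 in their non-tumour liver. The shift was small beside that of Nop56, and the MYC/REG3A tumour of mouse 4 was level with its liver. Rrp9 differed by 0.34 in MYC/REG3A mice without passing (SE 0.109, adjusted p = 0.0663) and rose by 0.52 in MYC mice (SE 0.109, adjusted p = 0.00619).

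**Figure D2:**
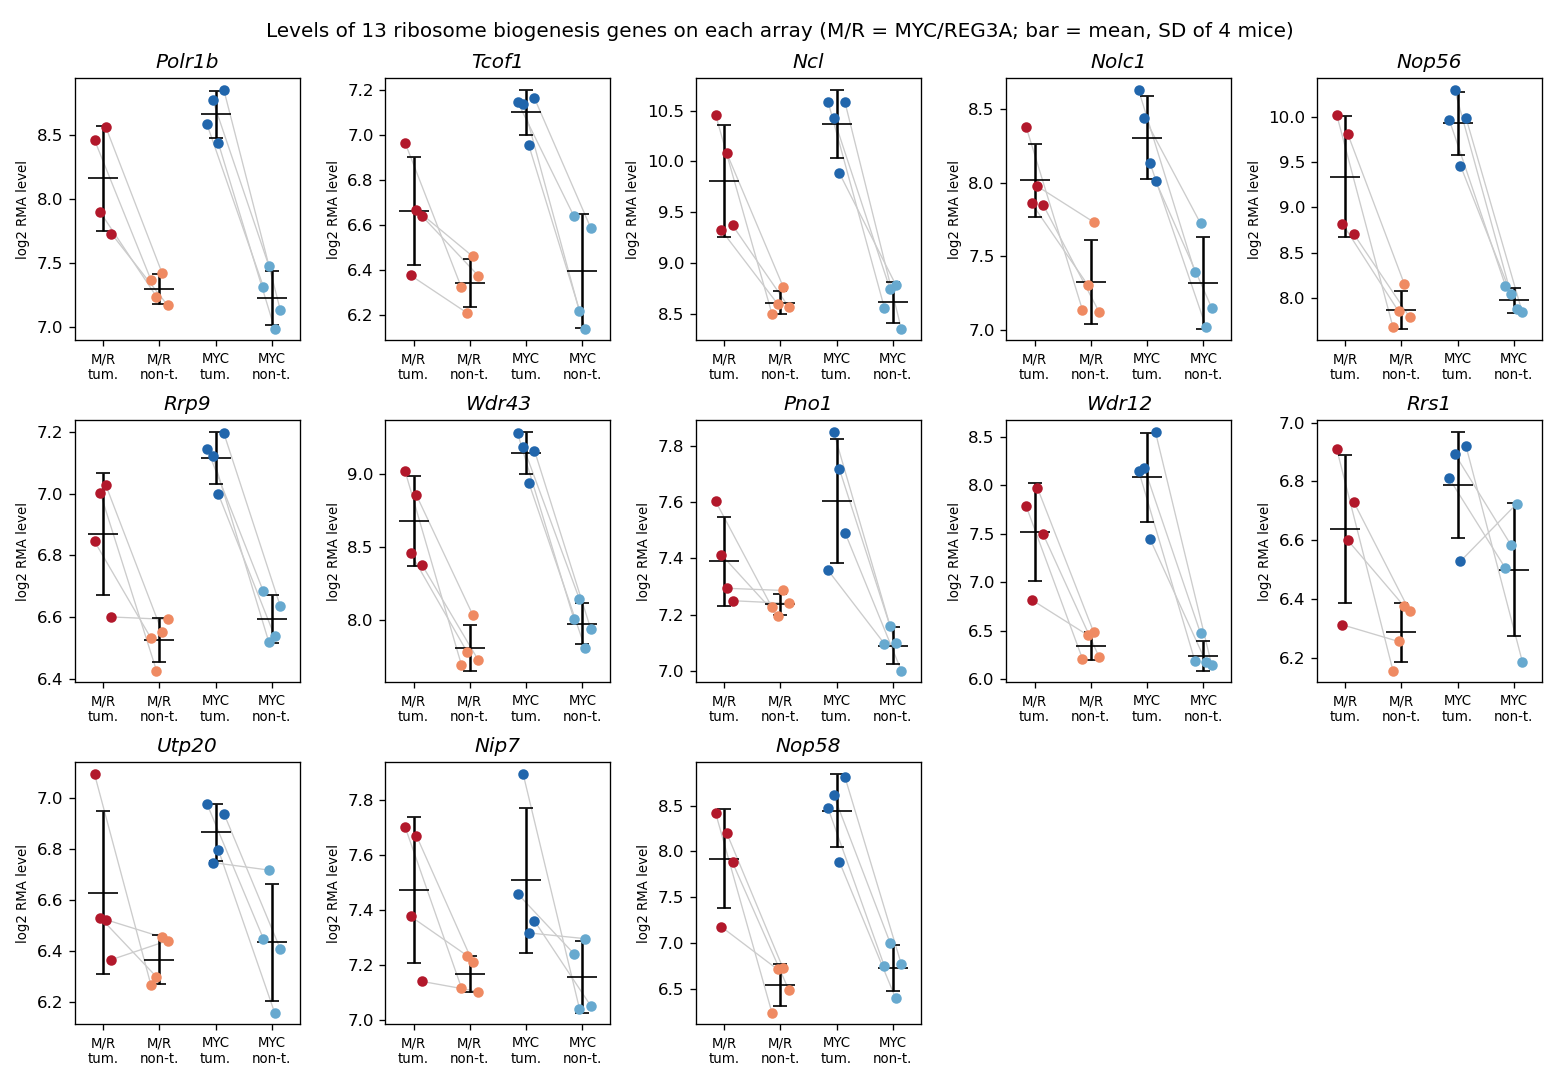
Log2 RMA level (y axis, scaled per gene) of 13 genes on each array: MYC/REG3A tumours, MYC/REG3A non-tumour livers, MYC tumours and MYC non-tumour livers from left to right, with mean and SD of 4 mice in black and grey lines joining the samples of a mouse. For Nop56, Nop58, Ncl, Wdr43 and Polr1b all tumours lie above all livers, while for Rrs1 and Utp20 the groups of a genotype overlap in at least 1 genotype.

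Small subunit assembly was represented by 15 genes. Of these 7 rose in MYC/REG3A tumours (median 0.51, background 7.58%) and 14 in MYC tumours (median 0.75, background 17.4%). Wdr43, Wdr75, Utp15 and Heatr1 belong to the complex that joins the rRNA precursor first and that is also needed for its transcription. Wdr43 had levels of 9.02, 8.45, 8.85 and 8.38 in the tumours of MYC/REG3A mice 1 to 4, against 7.69, 7.78, 8.03 and 7.72 in their non-tumour liver. Log2 levels were 9.28, 9.19, 8.94 and 9.16 in the tumours of MYC mice 1 to 4, against 8.01, 8.14, 7.8 and 7.94 in their non-tumour liver. All tumours lay above all livers of both genotypes. Wdr43 rose by 0.87 (SE 0.123, adjusted p = 0.00584) in MYC/REG3A mice and 1.17 (SE 0.123, adjusted p = 0.000554) in MYC mice. Wdr75 rose by 0.88 in MYC/REG3A mice and 1.12 in MYC mice. Utp15 and Heatr1 rose in MYC mice, by 0.63 and 0.75 (adjusted p = 0.0161 and 0.00776). In MYC/REG3A mice they differed by 0.33 and 0.42 without passing (adjusted p = 0.211 and 0.119).

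Genes that act within or after the small subunit processome fell into those called in both genotypes and those called in MYC mice. Called in both were Wdr3, a scaffold protein (0.59 in MYC/REG3A mice and 0.97 in MYC mice), Imp4, a U3-associated protein (0.52 in MYC/REG3A mice and 0.96 in MYC mice), Noc4l (0.58 in MYC/REG3A mice and 0.84 in MYC mice), Rrp12, an export factor (0.72 in MYC/REG3A mice and 0.94 in MYC mice), and Nob1, the endonuclease that makes the mature end of the small subunit rRNA (0.54 in MYC/REG3A mice and 0.90 in MYC mice). Called in MYC mice were Nop14, the binding partner of Noc4l (0.55), Bysl, a late-acting factor (0.72), the helicase Ddx10 (0.49) and Rcl1, which cuts the precursor in yeast (0.47). Their differences in MYC/REG3A mice were 0.41, 0.51, 0.22 and 0.23, with adjusted p from 0.0597 to 0.285. A gene called in one genotype is not thereby shown to differ between them, a difference that is tested further on.

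Pno1, the partner of Nob1, had the smallest mean change of the small subunit genes. It had levels of 7.6, 7.41, 7.29 and 7.25 in the tumours of MYC/REG3A mice 1 to 4, against 7.23, 7.19, 7.29 and 7.24 in their non-tumour liver. Its levels were 7.36, 7.85, 7.72 and 7.49 in the tumours of MYC mice 1 to 4, against 7.1, 7.16, 7.1 and 7.0 in their non-tumour liver. In MYC/REG3A mice the tumours of mice 3 and 4 were level with their own livers, while all MYC tumours exceeded all MYC livers. Pno1 differed by 0.15 in MYC/REG3A mice (SE 0.109, adjusted p = 0.381) and rose by 0.51 in MYC mice (SE 0.109, adjusted p = 0.00659). Utp20, a very large scaffold protein, passed in neither genotype. It showed levels of 7.09, 6.53, 6.52 and 6.36 in the tumours of MYC/REG3A mice 1 to 4, against 6.27, 6.3, 6.45 and 6.44 in their non-tumour liver. The levels were 6.98, 6.75, 6.8 and 6.94 in the tumours of MYC mice 1 to 4, against 6.45, 6.72, 6.16 and 6.41 in their non-tumour liver. The MYC/REG3A tumour of mouse 1 stood above all livers, whereas the tumours of mice 2 to 4 lay close to them. The differences were 0.26 (SE 0.157, adjusted p = 0.291) in MYC/REG3A mice and 0.43 (SE 0.157, adjusted p = 0.0587) in MYC mice, and that in MYC mice passed without the mouse block.

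Large subunit assembly was represented by 18 genes. Of these 13 rose in MYC/REG3A tumours (median 0.62, background 7.58%) and 16 in MYC tumours (median 0.96, background 17.4%). Pes1, Bop1 and Wdr12 form one complex, PeBoW, that processes the precursor of the large subunit rRNAs. Wdr12 had levels of 7.79, 6.82, 7.97 and 7.5 in the tumours of MYC/REG3A mice 1 to 4, against 6.21, 6.45, 6.48 and 6.22 in their non-tumour liver. It stood at 8.15, 8.18, 7.45 and 8.55 in the tumours of MYC mice 1 to 4, against 6.18, 6.47, 6.17 and 6.14 in their non-tumour liver. Tumours and livers did not overlap in either genotype, and the tumour of MYC/REG3A mouse 2 was the lowest tumour. Wdr12 rose by 1.18 (SE 0.218, adjusted p = 0.0126) in MYC/REG3A mice and 1.84 (SE 0.218, adjusted p = 0.000819) in MYC mice, a call lost in MYC/REG3A mice without mouse 1 or without mouse 3. Its partners also rose, Bop1 by 0.79 in MYC/REG3A mice and 1.02 in MYC mice and Pes1 by 0.53 in MYC/REG3A mice and 0.74 in MYC mice.

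Of the other large subunit factors, Ppan, which acts on early precursors, rose by 1.23 in MYC/REG3A mice and 1.39 in MYC mice, and Nop2, an rRNA methyltransferase and proliferation marker, by 0.96 in MYC/REG3A mice and 1.41 in MYC mice. Rrp1b rose by 0.61 in MYC/REG3A mice and 1.33 in MYC mice. Noc2l and Noc3l, which travel with precursors of the large subunit, rose by 0.72 and 0.66 in MYC/REG3A mice and by 1.19 and 1.04 in MYC mice. The helicase Ddx18 rose by 0.67 in MYC/REG3A mice and 1.14 in MYC mice, and Nop16 by 0.64 in MYC/REG3A mice and 1.07 in MYC mice. Gnl3, the GTPase nucleostemin, rose by 0.63 in MYC/REG3A mice and 0.79 in MYC mice. Nle1, a WD-repeat protein released by the ATPase Mdn1, rose by 0.49 in MYC/REG3A mice and 0.90 in MYC mice, and Ftsj3, an rRNA methyltransferase, by 0.46 in MYC/REG3A mice and 0.85 in MYC mice. Ddx56, Grwd1 and Ebna1bp2 rose in MYC mice by 0.90, 0.59 and 0.43. In MYC/REG3A mice these 3 differed by 0.42, 0.34 and 0.34 without passing (adjusted p = 0.0702, 0.0627 and 0.108).

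The remaining large subunit genes, Rrs1 and Nip7, passed in neither genotype. Rrs1 helps to bring the small rRNA of the large subunit into the precursor. The row had levels of 6.91, 6.31, 6.6 and 6.73 in the tumours of MYC/REG3A mice 1 to 4, against 6.16, 6.26, 6.37 and 6.36 in their non-tumour liver. Log2 levels were 6.81, 6.89, 6.53 and 6.92 in the tumours of MYC mice 1 to 4, against 6.5, 6.58, 6.72 and 6.19 in their non-tumour liver. The MYC tumour of mouse 3 lay below its own liver, the one such pair among the MYC mice for any of the 48 genes. The differences were 0.35 (SE 0.157, adjusted p = 0.164) in MYC/REG3A mice and 0.29 (SE 0.157, adjusted p = 0.185) in MYC mice. Nip7 binds rRNA precursors in yeast and human cells. The gene had levels of 7.7, 7.38, 7.67 and 7.14 in the tumours of MYC/REG3A mice 1 to 4, against 7.12, 7.23, 7.21 and 7.1 in their non-tumour liver. Its levels were 7.46, 7.89, 7.32 and 7.36 in the tumours of MYC mice 1 to 4, against 7.24, 7.04, 7.3 and 7.05 in their non-tumour liver. The tumours of MYC/REG3A mice 1 to 3 lay above the 4 livers of their genotype and that of mouse 4 within them, while the MYC tumours lay above the MYC livers, by little in mouse 3. The differences were 0.31 (SE 0.147, adjusted p = 0.196) in MYC/REG3A mice and 0.35 (SE 0.147, adjusted p = 0.0942) in MYC mice.

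The size of the response differed between mice. The median change over the 48 genes was 1.08, 0.50, 0.58 and 0.39 in MYC/REG3A mice 1 to 4, and 0.91, 0.91, 0.86 and 1.07 in MYC mice 1 to 4. MYC/REG3A mouse 1 had the largest change of its genotype for 41 genes, and mice 4 and 2 the smallest for 24 and 17. In MYC mice no animal had the largest change as often as that: mouse 4 had it for 20 genes. The smallest change was spread much as in MYC/REG3A mice, with 20 genes in MYC mouse 3 and 16 in MYC mouse 2. Changes of at least 1 were seen for 29, 5, 10 and 5 genes in MYC/REG3A mice 1 to 4 and for 20, 19, 19 and 26 in MYC mice 1 to 4. Over all 13555 tested genes the counts were 826, 205, 604 and 308 in MYC/REG3A mice 1 to 4. They were 770, 786, 739 and 799 in MYC mice 1 to 4. MYC/REG3A mouse 1 thus had the most, and mice 2 and 4 the fewest, over all tested genes too. The SD between tumours had a median of 0.31 in MYC/REG3A mice and 0.23 in MYC mice, beside 0.21 and 0.20 over all tested genes. It was larger in MYC/REG3A tumours for 38 of 48 genes, and for 52.1% of all tested genes. In non-tumour liver the median SD was 0.14 in MYC/REG3A mice and 0.15 in MYC mice.

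**Figure D3:**
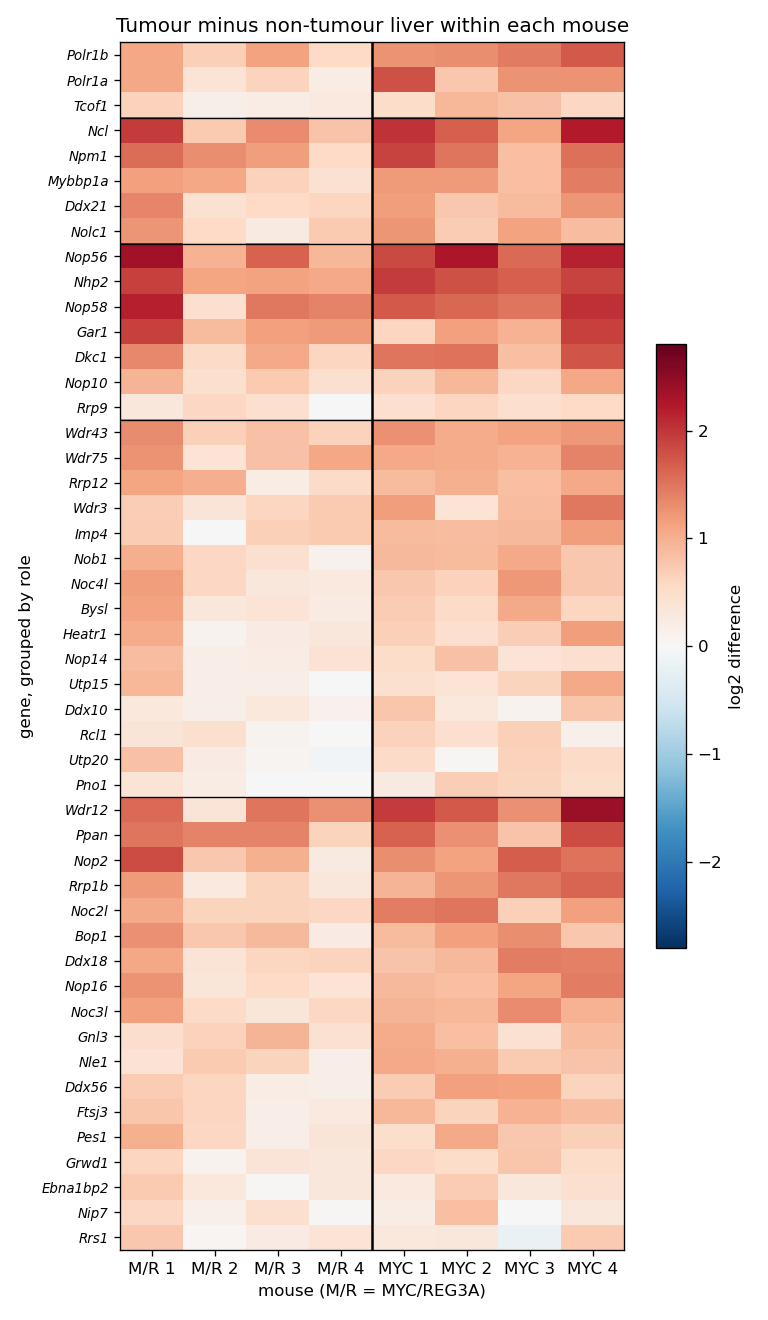
Tumour minus non-tumour liver of the same mouse (colour, log2) for 48 genes in rows, by role and by mean change, and 8 mice in columns, MYC/REG3A mice (M/R) left of MYC mice. The column of MYC/REG3A mouse 1 is darkest among its genotype and those of mice 2 and 4 are pale, while the 4 MYC columns are alike, and Nop56, Nop58, Nhp2, Ncl and Wdr12 form the darkest rows.

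The order of the genes by size of change was much the same in both genotypes, whose samples come from different mice. Across the 48 genes the changes in MYC/REG3A mice and in MYC mice correlated at r = 0.91 (Spearman's rho = 0.91), beside r = 0.87 across all tested genes. Genes are not independent replicates and probes of one row share their sensitivity on every array, so these are descriptions. Between single mice the rank correlation across the genes lay between 0.30 and 0.67 for MYC/REG3A mice and between 0.54 and 0.81 for MYC mice.

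Whether the tumour change depends on REG3A was tested as the difference of the 2 changes. It was below 0 for 46 of 48 genes, which means a smaller estimate in MYC/REG3A mice, against 50.7% of all tested genes, with a median of -0.32. The exceptions were Gar1 (0.13) and Rrs1 (0.06). The sign was shared by related lists described below. It was below 0 for 94 of 107 other ribosome assembly genes (median -0.21). The same held for 46 of 55 cytosolic (median -0.20) and 60 of 69 mitochondrial (median -0.30) ribosomal protein genes. Of 7 markers of sinusoidal endothelium, which were mostly lower in tumours, 7 were above 0 (median 0.52). By limma 0 of the 48 passed the threshold (background 0.00738%), and 10 had an unadjusted p below 0.05 (background 5.58%). The largest was that of Rrp1b at -0.72 (95% interval -1.24 to -0.20, adjusted p = 0.873), then Polr1a at -0.69 (-1.25 to -0.13), Wdr12 at -0.66 (-1.35 to 0.03) and Polr1b at -0.57 (-0.98 to -0.16). For Nop56 it was -0.48 (-1.18 to 0.21) and for Nop58 -0.34 (-1.04 to 0.36). These intervals are not adjusted for the number of genes. Without MYC/REG3A mice 2 and 4 the median difference was -0.13, with 10 genes above 0; these are the mice with the smallest changes. Without mouse 1, which had the largest, it was -0.46, with 0 genes above 0. The 48 genes were measured in the same 8 mice, so their signs are not independent of each other.

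**Figure D4:**
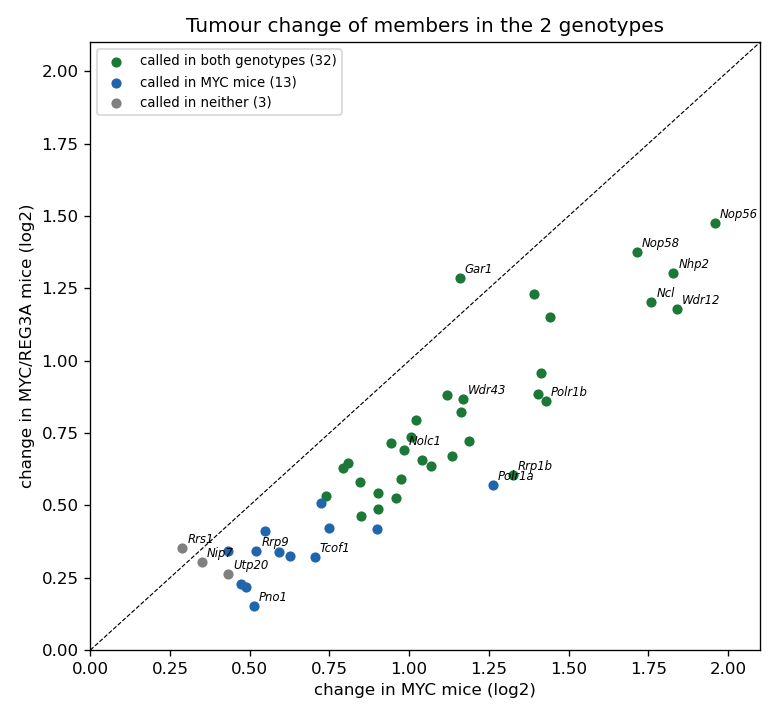
Tumour change in MYC/REG3A mice (y axis, log2) against that in MYC mice (x axis, log2) for 48 genes, coloured by where they passed the threshold; the dashed line marks equal change. 46 points lie below the line, and Gar1 and Rrs1 above it.

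Set against each other within a tissue, the genotypes gave no call. In tumours, MYC/REG3A minus MYC was below 0 for 47 of 48 genes (background 52.5%) with a median of -0.37, and by limma 0 passed (background 0.0221%), while 25 had an unadjusted p below 0.05 (background 10.6%). The lowest p was that of Rrp1b, with 6.41 ± 0.44 in MYC/REG3A tumours and 7.17 ± 0.14 in MYC tumours (SD, n = 4 each), a difference of -0.76 (95% interval -1.14 to -0.38, adjusted p = 0.227). This fit pools the spread of tumours and livers, and these genes varied more between tumours, so intervals and unadjusted p in tumours may be too small. With the tumour arrays alone 0 of the 48 passed too (background 0%). Related lists were also mostly below 0 in tumours: 96 of 107 other ribosome assembly genes (median -0.22) and 49 of 55 cytosolic ribosomal protein genes (median -0.23). By limma 27 and 19 of them had an unadjusted p below 0.05, and 0 passed. Of 69 mitochondrial ribosomal protein genes 56 were below 0 (median -0.13). Without MYC/REG3A mouse 1, 6 of the 48 genes passed as lower in MYC/REG3A tumours, namely Ddx21, Heatr1, Nhp2, Noc4l, Nop16 and Rrp1b. Calls over all tested genes were then 114 in either direction (0.841%). In non-tumour liver MYC/REG3A minus MYC ran between -0.23 and 0.27, below 0 for 31 genes (background 51.1%). By limma 0 passed (background 0%) and 0 had an unadjusted p below 0.05 (background 5.45%). With a variance trend and robust estimation the counts of calls in tumours and in livers were also 0.

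A wider list of assembly genes held rises and no called fall. Of 115 other genes of ribosome assembly, 107 were tested. In MYC/REG3A mice 35 rose, against a background of 7.58% of all tested genes, and 0 fell (median 0.35, 9 estimates below 0). In MYC mice 75 rose, against a background of 17.4%, and 0 fell (median 0.55, 5 estimates below 0). The largest rises in MYC/REG3A mice were those of Taf1d, a subunit of the promoter factor of RNA polymerase I, by 1.62 (SE 0.219), of Brix1, a large subunit factor, by 1.11 (SE 0.172), of Rsl1d1 by 1.07 (SE 0.156) and of Nifk, a nucleolar partner of Ki-67, by 0.98 (SE 0.162). In MYC mice they were those of Taf1d by 2.11 (SE 0.219), Brix1 by 1.45 (SE 0.172), Nifk by 1.39 (SE 0.162) and Exosc8, a subunit of the RNA exosome, by 1.31 (SE 0.153). As in the genes described above, the count in MYC/REG3A mice was small without mouse 1 or mouse 3, with 6 calls in each case. The background of genes called in either direction was then 2.07% without mouse 1 and 2.01% without mouse 3.

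Cytosolic ribosomal proteins themselves gave medians of the same order, and mitochondrial ones lower medians. Both lists were taken by symbol, without a test of the difference between lists. Of 55 tested cytosolic ribosomal protein genes 36 rose in MYC/REG3A tumours (median 0.64, 2 estimates below 0) and 47 in MYC tumours (median 0.83, 3 estimates below 0). Over all tested genes 7.58% rose in MYC/REG3A tumours and 17.4% in MYC tumours. Many of these genes have processed copies that could share probes. Of 69 mitochondrial ribosomal protein genes 15 rose in MYC/REG3A tumours (median 0.29, 5 estimates below 0) and 47 in MYC tumours (median 0.54, 2 estimates below 0). No gene of either list was called lower in either genotype. In MYC mouse 3 the cytosolic ribosomal proteins had a median change of 0.46, beside 0.86 for the 48 assembly genes, and in MYC/REG3A mouse 3 0.79 beside 0.58.

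**Figure D5:**
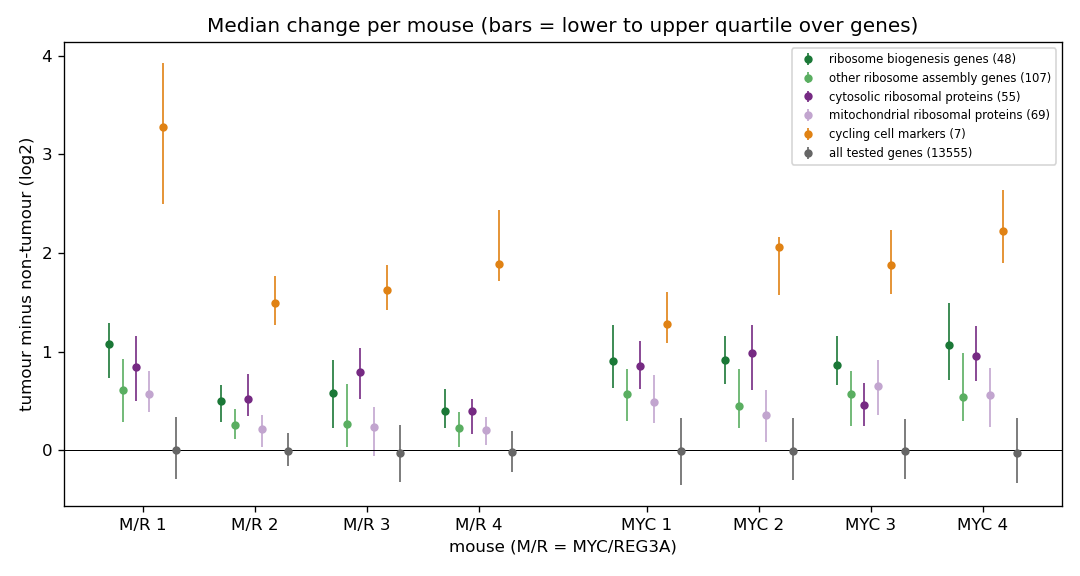
Median tumour change per mouse (y axis, log2; bars run from the lower to the upper quartile over the genes of a list) for 6 gene lists, MYC/REG3A mice (M/R) left of MYC mice. The 48 ribosome biogenesis genes lie above all tested genes in each mouse, from 0.39 in MYC/REG3A mouse 4 to 1.08 in MYC/REG3A mouse 1, and the cycling cell markers lie highest in all 8 mice.

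Markers of cycling cells also rose in the tumours, though the mice were not ordered alike. Of 8 such markers 7 were tested, and all 7 rose in both genotypes (background 7.58% and 17.4%), with medians of 2.13 in MYC/REG3A mice and 1.96 in MYC mice. Their median change was 3.28, 1.49, 1.63 and 1.88 in MYC/REG3A mice 1 to 4 and 1.28, 2.06, 1.88 and 2.23 in MYC mice 1 to 4. MYC/REG3A mouse 1 was highest for both lists, but MYC mouse 1, lowest for the cycling markers, was close to the other MYC mice for the ribosome biogenesis genes. MYC/REG3A mouse 4, lowest for the ribosome biogenesis genes, stood above mice 2 and 3 of its genotype for the cycling markers. The log2 of the summed level of the cycling markers was 10.12 to 11.56 in MYC/REG3A tumours and 8.23 to 8.5 in their livers, and 10.48 to 11.37 in MYC tumours and 8.54 to 9.6 in theirs. The part of these cells in the rise of the ribosome biogenesis genes was not tested.

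Markers of several non-hepatocyte cells were lower in the tumours. Over all tested genes, 4.88% fell in MYC/REG3A tumours and 15.8% in MYC tumours. For sinusoidal endothelium, 5 of 7 tested markers fell in MYC/REG3A tumours and 6 in MYC tumours, and the log2 summed level was 10.59 to 11.67 in MYC/REG3A tumours and 11.67 to 12.03 in their livers, and 10.88 to 11.35 in MYC tumours and 11.81 to 12.6 in theirs. Lyve1 of this list was above 0 without passing, by 0.43 in MYC/REG3A tumours and 0.09 in MYC tumours (adjusted p = 0.274 and 0.806 by limma). For Kupffer cells and macrophages, 6 of 7 tested markers fell in MYC/REG3A tumours and 5 in MYC tumours, and the log2 summed level was 9.96 to 11 in MYC/REG3A tumours and 11.19 to 11.88 in their livers, and 10.86 to 11.27 in MYC tumours and 10.8 to 12.52 in theirs. These cells line or patrol the sinusoids of normal liver. For stellate cells and fibroblasts, 3 of 7 tested markers fell in MYC/REG3A tumours and 4 in MYC tumours, and the log2 summed level was 9.78 to 11.75 in MYC/REG3A tumours and 11.73 to 12.004 in their livers, and 10.62 to 11.23 in MYC tumours and 11.87 to 12.64 in theirs. The collagen genes of this list were not called in either genotype by limma. Col1a1 differed by 0.65 in MYC/REG3A tumours (adjusted p = 0.063) and by 0.16 in MYC tumours (adjusted p = 0.589). Col3a1 differed by 0.34 (adjusted p = 0.198) and by -0.04 (adjusted p = 0.868). For B and plasma cells, 3 of 3 tested markers fell in MYC/REG3A tumours and 2 in MYC tumours, and the log2 summed level was 6.58 to 7.65 in MYC/REG3A tumours and 7.42 to 9.19 in their livers, and 6.93 to 7.23 in MYC tumours and 8.06 to 9.2 in theirs. For neutrophils, 0 of 3 tested markers passed in MYC/REG3A tumours and 3 fell in MYC tumours. In MYC/REG3A tumours all 3 estimates were below 0, and 2 had an unadjusted p below 0.05 by limma. The log2 summed level of neutrophil markers was 6.85 to 7.61 in MYC/REG3A tumours and 7.33 to 8.31 in their livers. It was 7.13 to 8.24 in MYC tumours and 7.37 to 8.81 in theirs. Of 3 tested T and NK cell markers 0 passed in either genotype by limma, with 0 at an unadjusted p below 0.05 in MYC/REG3A mice and 1 in MYC mice, and of 4 bile duct markers 0 fell in MYC/REG3A tumours and 2 in MYC tumours. Apart from S100a8 in MYC/REG3A tumours, no marker lay at or below the highest lower quartile of the arrays on all arrays of a group. In tissue samples fewer cells of a type and less RNA per cell cannot be told apart, and the part of cell mixture in the ribosome biogenesis values was not tested.

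The Myc row did not rise with the ribosome biogenesis genes. Myc had log2 levels of 7.1, 9.37, 7.26 and 7.58 in the tumours of MYC/REG3A mice 1 to 4, against 6.99, 9.24, 7.69 and 7.97 in their livers. It had 7.09, 7.24, 7.17 and 6.84 in the tumours of MYC mice 1 to 4, against 7.92, 7.78, 7.61 and 7.41 in their livers. MYC/REG3A mouse 2 stood above all other mice in both tissues, and it was one of the mice with a small ribosome biogenesis change. Myc differed by -0.14 in MYC/REG3A mice (SE 0.127, adjusted p = 0.486) and fell by 0.59 in MYC mice (SE 0.127, adjusted p = 0.00673). Whether its probes read the transgene as well as the mouse gene is not given in the sources used here, so it is no measure of total c-MYC.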

How the data were processed

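RNA of 16 liver samples was measured on mouse Affymetrix arrays, 1 per sample. The deposited values are log2 levels, which the authors obtained by RMA (Affymetrix Expression Console 1.4.1, from the submitters' processing notes); that they are log2 follows from their range. Array means ran from 5.434 to 5.465. No detection calls were used, so how far a gene stands above background is unknown, and precision is limited by the number of arrays.

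Of 41345 rows, 23521 carried exactly 1 gene symbol in the platform annotation, of which 23328 matched RefSeq (GRCm38.p6) by Entrez ID. Of several rows, that with the highest mean stood for the gene. Genes above the array median on at least 4 arrays entered the fits. These used limma 3.58.1 in R 4.3.3 (lmFit, eBayes, 2-sided) on all 16 arrays, and were tested on simulated data. Tumour changes and their difference had the mouse as a fixed block, since both samples of an animal are paired by design (deviations from the group means correlated at 0.0963 to 0.325 within a mouse). The liver of MYC/REG3A mouse 3, at 0.0963, correlated more with the tumour of another mouse of its genotype. Comparisons between genotypes used group means without a block, with the spread pooled over the 4 groups.

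The genes and lists were chosen with earlier results of these data known, so no list is tested as a whole. Levels on every array are shown for the largest and smallest mean change of each role, for genes called in neither genotype, and for Nop56, Nop58 and Ncl. Of the other assembly genes, up to 4 with the largest called change per genotype are named. Alternatives were other filters, rows, variance models, scalings, blocks and samples.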

Additional observations from a re-analysis of the deposited data

Results flagged for a closer look

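In 2 of the 54 groups of 4 values examined (13 genes in 4 sample groups, and the median change per genotype), 1 sample stood farther from the other 3 than the critical value of Dixon's test at the 95% level. The MYC tumour of mouse 3 was low for Tcof1, at 6.95, and the MYC non-tumour liver of mouse 2 was high for Wdr12, at 6.47. Chance alone gives about 1 such group in 20. None of the 48 ribosome biogenesis genes passed limma's test of the difference between genotypes in the tumour change, where 10 had an unadjusted p below 0.05.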

How the results depend on the processing

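Leaving out 1 mouse at a time, the count of ribosome biogenesis genes called in MYC/REG3A mice ranged from 9 to 33 of 48. It was lowest without MYC/REG3A mouse 1 and next without mouse 3. In MYC mice the count ranged from 42 to 46. Over all tested genes, the share called in either direction was 2.07% at 9, 13.6% at 33, 21.9% at 42 and 33.1% at 46. For the other assembly genes the ranges were 6 to 36 and 61 to 74 genes, and for MYC/REG3A minus MYC tumours 0 to 6 of 48 (6 without MYC/REG3A mouse 1, where calls over all tested genes were 114, against 3 with all mice). The median change ranged from 0.50 to 0.68 and from 0.93 to 0.98. Over all tested genes, calls in MYC/REG3A mice were 1690 and became 281 when mouse 1 was left out, 273 for mouse 3 and 944 for mouse 4, and in MYC mice 4505 became 2975 without mouse 4. The cause was not tested. Without the mouse block, 32 genes were called in MYC/REG3A mice (11.9% of all tested genes), 46 in MYC mice (32.6%) and 0 for the difference (0%). With the mouse as a random block 0 were called in tumours (0.0221%) and 0 in livers (0%) between genotypes. With the 8 arrays of MYC/REG3A mice alone 24 genes were called (11.1% of all tested genes), without MYC/REG3A mice 2 and 4 22 (10%), and without the filter on low values 28 (6.38%), against 32 (12.5%) as reported. The other filter, the mean of all rows, the variance trend and the recentring left 31 or 32 genes called in MYC/REG3A mice and 45 in MYC mice. Over all tested genes 12.3% to 13.3% and 32.7% to 33.7% were then called in either direction. For the 13 genes with levels on every array, 1002 values under an alternative kept their side of the threshold, 7 lost the call and 5 gained it. The tumour changes of all 48 genes stayed above 0 in both genotypes under every alternative. Comparisons between genotypes could change sign. The difference of the tumour change was above 0 for 2 genes with all mice and for 10 without MYC/REG3A mice 2 and 4.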

Other observations

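In MYC/REG3A non-tumour livers, mouse 3 had the highest level for 37 of the 48 ribosome biogenesis genes, with a median deviation of 0.14 from the group mean, against -0.09, -0.03 and -0.04 in mice 1, 2 and 4. Its tumour change is therefore measured from a higher level.

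The array holds further rows for 6 of the genes, and none changed in the opposite direction. For Nop56, 1 further row changed by 1.85 in MYC/REG3A mice and 2.60 in MYC mice, and the other by 0.03 and 0.23, beside 1.48 and 1.96 for the row used. The second row of Ddx18, at levels of 4.42 in MYC/REG3A tumours and 4.41 in MYC tumours, changed by 0.11 and 0.07. The second row of Ppan changed by 1.10 and 1.37, close to 1.23 and 1.39 for the row used.

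Among other assembly genes of the nucleolus, Taf1d had the largest rise in both genotypes, at 10.90 ± 0.73 in MYC/REG3A tumours and 9.28 ± 0.19 in their livers, and 11.60 ± 0.31 in MYC tumours and 9.49 ± 0.20 in theirs (SD, n = 4 each).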
